A study of Rattus norvegicus with 15 samples.

Results

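The genes of the rat major histocompatibility complex (MHC) and of antigen presentation were followed in 15 RNA-seq libraries, 8 of mesenteric artery and 7 of kidney cortex. Members were the rows of the expression table that carry a gene identifier and a name beginning RT1-, the prefix of rat MHC genes, together with Cd74, Ciita, B2m, Tap1, Tap2, Tapbp, Psmb8, Psmb9 and Psmb10. They numbered 56 of 34357 genes. Class II held 12 genes, the 10 RT1-B, RT1-D, RT1-DM, RT1-DO and RT1-H rows with Cd74 and Ciita. Class I held 44, the other 37 RT1- rows with B2m, the Tap genes, Tapbp and the 3 immunoproteasome subunits. The rule used names alone, but it was set with earlier results of these data known.

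All rats were of the Dahl salt-sensitive (SS) strain, which is inbred and becomes hypertensive when fed salt. In deletion rats, 30.4 kb of noncoding DNA near Npr3, the natriuretic peptide clearance receptor gene, had been removed (chromosome 2, 60825801 to 60856216, build rn7). There were 4 deletion and 4 wild-type arteries, and 4 deletion and 3 wild-type kidneys, all labelled male. The labels give no age, diet or number of founder lines and do not say which libraries share an animal, so p-values measure the spread between these libraries, which may be partly technical.

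Class I molecules sit on nearly all nucleated cells and show peptides cut from cytosolic proteins to CD8 T cells. The peptides are cut by the proteasome, carried into the endoplasmic reticulum by the Tap1 and Tap2 pump, and loaded onto a heavy chain paired with beta-2 microglobulin. Class II molecules are made mainly by B cells, dendritic cells and macrophages, and show peptides cut in endosomes to CD4 T cells. Cd74, the invariant chain, blocks the class II groove until the cathepsins degrade it, DM then exchanges the remaining fragment for peptide, and DO restrains DM. In several species, epithelial cells can also make class II when interferon gamma induces Ciita, the master coactivator of class II genes.

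The members that are not in the MHC lie elsewhere, at 109095740 to 109101764 on chromosome 3 (B2m), 5139947 to 5187493 on chromosome 10 (Ciita), 54256757 to 54266003 on chromosome 18 (Cd74) and 33830958 to 33833442 on chromosome 19 (Psmb10), all on rn7. The other 52 lie on chromosome 20, where the 10 RT1- class II rows span 4513464 to 4770662 and the 42 class I rows span 978918 to 4966191. None is on chromosome 2, which carries the deleted interval. Several class I models overlap each other. RT1-T24-4 overlaps RT1-T24-3 and, on the other strand, RT1-T24-2, RT1-CE5 overlaps RT1-CE4, RT1-CE6 and RT1-CE7, and RT1-A2 overlaps RT1-A1. These genes are also near-identical copies in places, and the sources do not say how the authors assigned reads among them. Values of single RT1-A, RT1-CE and RT1-T24 genes are therefore uncertain. Whether the RT1 genes of build rn7 match those of SS rats was not examined.

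Levels are in FPKM, fragment counts scaled to gene length and library size. Of the 56 genes, 31 stood above 1 FPKM in every library, and 10, all of class I, stayed under 0.5 FPKM in every library. RT1-CE6 and RT1-M1-2 were listed at 0 in all 15 libraries. The tissue labels fit their markers. Smooth muscle markers (5 genes) summed to between 1213 and 2535 FPKM in arteries and between 21.6 and 47.9 in kidneys, and 5 proximal tubule genes to between 1.35 and 3.79 FPKM in arteries and between 1657 and 2452 in kidneys. The arteries also carried fat, with adipocyte markers at 1318 to 2532 FPKM. The library labelled kidney male wild-type 3 went against its label. Xist, the RNA that silences an X chromosome, reached 81.1 FPKM there, against 0.0989 to 1.3 FPKM in the other libraries, and the Y-linked Eif2s3y was listed at 0, against 24.1 to 39.6 FPKM. Among arteries, wild-type 4 held the most haemoglobin RNA and wild-type 1 the most intestinal transcripts. Depth per library is unknown.

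Most tested class II genes were lower in artery than in kidney cortex, while more than 1 in 2 tested class I genes were higher in artery. Differences between tissues were tested with limma on log2(FPKM + 0.5), leaving out genes whose mean was under 0.5 FPKM, and a gene was called at a Benjamini-Hochberg adjusted p under 0.05. Of the 10 class II genes that passed the filter on low values, 6 were called lower in artery and 1 higher. Of the 30 class I genes that passed it, 16 were called higher and 1 lower. Over all 16856 genes tested, 41.8% were called higher in artery and 35.2% lower, so a call alone does not set a member apart. The median log2 difference, artery minus kidney, was -0.96 for class II and 0.42 for class I, against 0.11 for all genes. Median-of-ratios scaling moved the median of all genes to -0.03, and with it class II was split into 1 higher and 6 lower and class I into 14 higher and 3 lower. The class I genes gained as lower were RT1-A2 (-0.38) and RT1-M6-2 (-0.32). Without wild-type artery 3, deletion artery 2 and kidney wild-type 3, class I split into 13 higher and 3 lower. In bulk tissue, fewer cells of a type and less RNA per cell cannot be told apart.

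**Figure D1:**
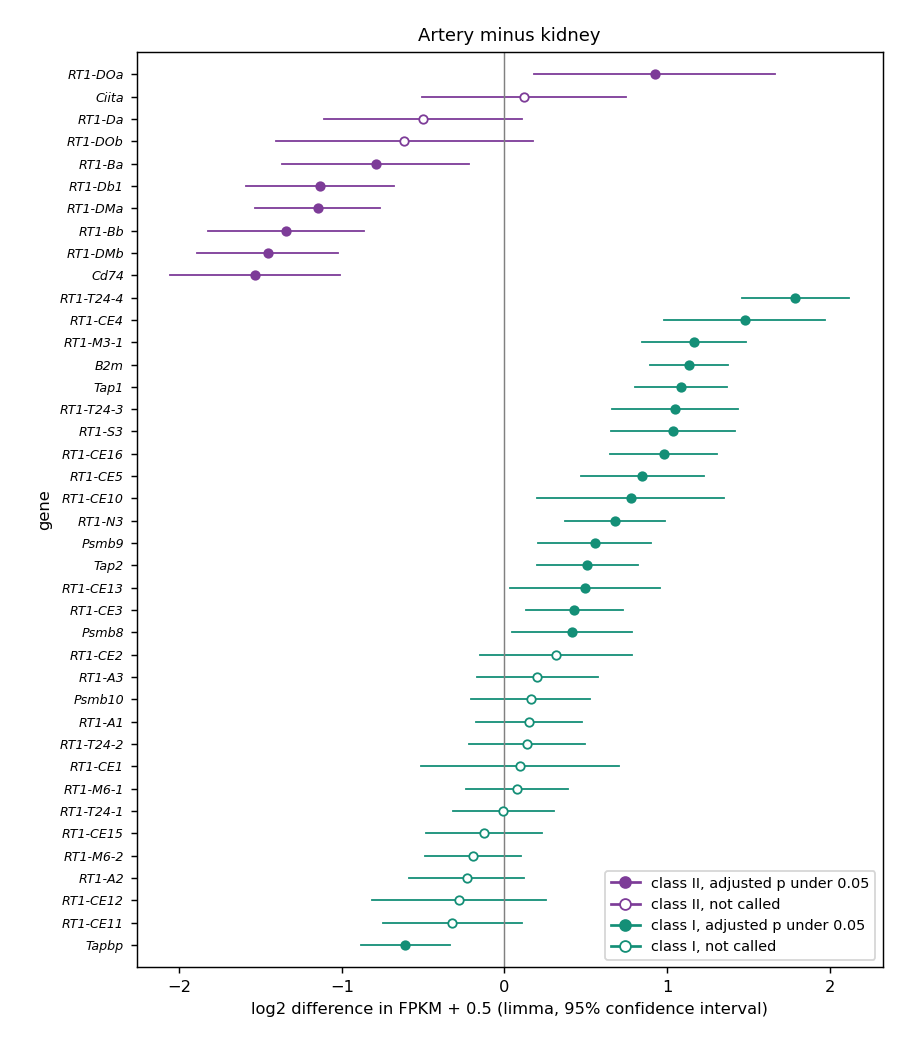
Log2 difference, artery minus kidney, of the 40 tested genes (horizontal axis), with the 95% confidence interval from limma as a line. Class II genes are on top in purple and class I genes below in green, with filled points for adjusted p under 0.05. Cd74 at -1.53 is the lowest point and RT1-T24-4 at 1.79 the highest.

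The classical class II heterodimers are RT1-D, the rat counterpart of HLA-DR, and RT1-B, the counterpart of HLA-DQ. The promoters of their genes are shown because the X and Y boxes, bound by the RFX complex and by NF-Y, are where Ciita docks. RefSeq promoters of build GRCr8, from 250 bases before to 50 bases after the start, were matched for 10 of the 12 class II genes. All promoter sequences here and below are those of the reference build and were not read from these rats. The Y box was searched as TGATTGG and the X box as AGCAACNGA, on both strands. All 9 RT1- class II promoters held TGATTGG on the strand of the gene, as did 3.62% of all 33469 promoters (7.06% on either strand). The string was not particular to class II, since 16 of 39 class I promoters held it on either strand, 4 of them on the strand of the gene. RT1-Da, RT1-Db1, RT1-Db2 and RT1-DOb also held AGCAACNGA, found in 1.33% of all promoters on either strand and in 1 of 39 class I promoters, that of RT1-CE12. Both motifs stood together in 4 of the 10 class II promoters and in 21 of all 33469, or 0.0627%. The Cd74 promoter held neither string in this window. Stretches of 70 bases follow, read along the gene's strand, with both motifs in capitals where they occur. They do not overlap in these stretches.
RT1-Da, chr20:4515307-4515376, plus strand: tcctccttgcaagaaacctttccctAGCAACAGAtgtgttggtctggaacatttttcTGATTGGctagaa
RT1-Db1, chr20:4560232-4560301, minus strand: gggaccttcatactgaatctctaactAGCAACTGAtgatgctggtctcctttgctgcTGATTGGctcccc
RT1-DOb, chr20:4627596-4627665, minus strand: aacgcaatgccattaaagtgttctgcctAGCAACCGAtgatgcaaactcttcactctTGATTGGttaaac
RT1-Ba, chr20:4576955-4577024, plus strand: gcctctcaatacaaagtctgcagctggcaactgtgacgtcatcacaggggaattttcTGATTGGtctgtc
RT1-DMa, chr20:4712389-4712458, minus strand: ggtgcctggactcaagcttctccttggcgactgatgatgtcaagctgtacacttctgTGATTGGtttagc
RT1-DOa, chr20:4758520-4758589, minus strand: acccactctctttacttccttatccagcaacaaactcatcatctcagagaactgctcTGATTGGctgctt
The stretches were cut at a set distance from the Y box. The X box of RT1-Da, RT1-Db1 and RT1-DOb lies upstream of it at a similar spacing, and a match is a description of letters, not of binding.

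Cd74 stood at 58.7, 103, 70.7 and 66.1 FPKM in deletion arteries 1 to 4, and at 59.5, 59.6, 200 and 58.3 FPKM in wild-type arteries 1 to 4. In kidney it stood at 226, 180.5, 211 and 239 FPKM in deletion libraries 1 to 4, and at 170.5, 239 and 307 FPKM in wild-type libraries 1 to 3. Every kidney lay above every artery but wild-type artery 3, and the genotypes overlapped in both tissues. The log2 difference, artery minus kidney, was -1.53 (SE 0.24, adjusted p 3.35e-05, limma), which is 0.346 of the kidney level on the FPKM + 0.5 scale (95% interval 0.241 to 0.496). RT1-Da, the alpha chain of RT1-D, had more overlap. Its levels were 60.5, 151, 89.0 and 69.9 FPKM in deletion arteries and 43.3, 69.3, 232 and 62.9 FPKM in wild-type arteries, against 124, 120, 109 and 131 FPKM in deletion kidneys and 116, 128 and 110.5 FPKM in wild-type kidneys. Wild-type artery 3 and deletion artery 2 lay above all kidneys and the other 6 arteries below them. The difference was -0.50 (SE 0.29, adjusted p 0.12) and was not called.

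The partners of RT1-Da differed more between tissues. RT1-Db1, the beta chain of RT1-D, averaged 12.7 ± 5.97 FPKM in arteries (SD, n = 8) and 26.3 ± 3.45 in kidneys (SD, n = 7), a log2 difference of -1.13 (SE 0.21). RT1-Ba and RT1-Bb, the chains of RT1-B, averaged 24.4 ± 15.3 and 20.7 ± 11.1 FPKM in arteries, against 38 ± 5.01 and 49.1 ± 7.01 FPKM in kidneys. RT1-Bb differed by -1.34 (SE 0.23, adjusted p 5.65e-05, limma) and RT1-Ba by -0.79 (SE 0.27, adjusted p 0.015, limma), and RT1-Ba lost its call under quantile normalization (-0.52, adjusted p 0.11). RT1-Db2, a second RT1-D beta row, and RT1-Ha, of the RT1-H pair, did not pass the filter. RT1-Db2 ranged from 0 to 2.72 FPKM in arteries and from 0.0612 to 0.304 in kidneys, and RT1-Ha from 0.0292 to 1.98 in arteries and from 0.049 to 0.314 in kidneys. Both were highest in wild-type artery 3.

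Of the peptide editor genes, those of DM were called lower in artery, RT1-DOa was called higher and RT1-DOb was not called. RT1-DMb, the beta chain of DM, stood at 7.79, 13.5, 12.2 and 7.78 FPKM in deletion arteries and 7.79, 7.63, 23.1 and 11.7 FPKM in wild-type arteries. In kidney it stood at 30.4, 23.9, 31.8 and 30.9 FPKM in deletion libraries and 27.5, 33 and 33 FPKM in wild-type libraries. All kidneys lay above all arteries, at a log2 difference of -1.46 (SE 0.20, adjusted p 8.28e-06, limma). RT1-DMa, its partner, ranged from 3.77 to 11.2 FPKM in arteries and from 11 to 15.8 in kidneys, at -1.15 (SE 0.18). RT1-DOa, the alpha chain of DO, was the class II gene called higher in artery. It stood at 1.19, 4.43, 2.13 and 2.41 FPKM in deletion arteries and 1.01, 1.51, 8.42 and 2.39 FPKM in wild-type arteries, against 1.89, 2.03, 0.55 and 1.35 FPKM in deletion kidneys and 0.732, 1.21 and 0.46 FPKM in wild-type kidneys. Its groups overlapped, and its difference of 0.92 (SE 0.35, adjusted p 0.024, limma) rested on single libraries. Without wild-type artery 3 and deletion artery 2 it was 0.52 and not called, and it was also not called without deletion artery 2 (0.79), kidney deletion 3 (0.79) or kidney wild-type 3 (0.82) alone. RT1-DOb ranged from 0.822 to 8.61 FPKM in arteries and from 2.08 to 3.9 in kidneys, at -0.62 (SE 0.37, adjusted p 0.14, limma). Ciita ranged from 1.6 to 9.24 FPKM in arteries and from 1.68 to 3.1 in kidneys, at 0.12 (SE 0.29, 95% interval -0.50 to 0.75, adjusted p 0.71, limma). Ciita, the coactivator of these genes, was not called, and 6 other class II genes were called lower. The Ciita difference also rested on wild-type artery 3 (9.24 FPKM) and deletion artery 2 (4.5), with the other arteries at 1.6 to 2.2. Without these 2 arteries, 9 of the 10 tested class II genes were lower in artery, Ciita among them, and RT1-DOa alone was higher.

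**Figure D2:**
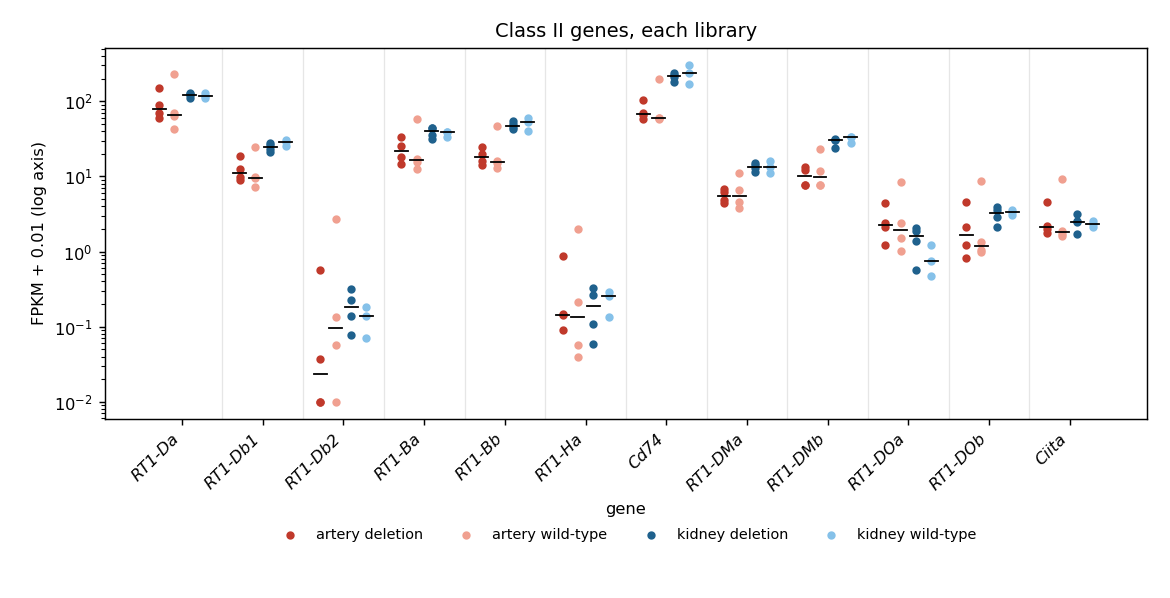
FPKM + 0.01 of the 12 class II genes on a log axis, 1 point per library, in the order artery deletion, artery wild-type, kidney deletion, kidney wild-type, with black lines for the median. The highest artery of each genotype was deletion 2 and wild-type 3, as for Cd74 at 103 FPKM in deletion 2 and 200 FPKM in wild-type 3. For RT1-DMb, deletion 2 (13.5 FPKM) lies close to deletion 3 (12.2).

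The arteries highest in class II genes were also the highest in B cell genes. The 12 class II genes summed to 174.5, 367, 238 and 202 FPKM in deletion arteries and 151, 187, 627 and 186.5 FPKM in wild-type arteries. The sum of 12 B cell markers was 12.8, 158, 65.7 and 12.5 FPKM in deletion arteries and 9.55, 8, 245.5 and 23 FPKM in wild-type arteries. Wild-type artery 3 was first and deletion artery 2 second in both. Ms4a1, which encodes the B cell antigen CD20, was 24.7 FPKM in deletion artery 2, 27 FPKM in wild-type artery 3 and between 0.315 and 3.15 in the other 6 arteries. Macrophage markers summed to 324 FPKM in deletion artery 2, below deletion artery 3 (438) and wild-type artery 4 (512), and to 654 in wild-type artery 3, the highest artery. T and NK cell markers summed to 47.2 FPKM in deletion artery 2, 94.7 in wild-type artery 3 and 59 in wild-type artery 4. The part of these cells in the class II levels was not tested.

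The kidneys held more class II RNA than every artery but wild-type 3 (627 FPKM), with lower sums of B cell and dendritic cell markers. B cell markers summed to between 8 and 245.5 FPKM in arteries, against 2 to 4.5 FPKM in kidneys, where Ms4a1 was at 0.043 to 0.143 FPKM. Macrophage markers summed to 231 to 654 FPKM in arteries and 128 to 231 in kidneys. Dendritic cell markers summed to 32.6 to 52.5 FPKM in arteries and 6.72 to 18.8 in kidneys. Clec10a was the largest part of the dendritic cell sum in arteries, at 12.6 to 20.5 FPKM. Itgax overlapped between tissues (0.48 to 3.46 FPKM in arteries, 0.464 to 3.04 in kidneys), as did Xcr1 (0.058 to 0.69 and 0.029 to 0.52). Numbers of dendritic cells were not measured. T and NK cell markers overlapped, at 6.55 to 94.7 FPKM in arteries and 6.45 to 11.4 in kidneys. Kidney wild-type 3 had the highest Cd74 of all libraries (307 FPKM) and the lowest macrophage and dendritic cell sums (128 and 6.72 FPKM). Of the tested markers, 12 of 12 for B cells and 9 of 11 for T and NK cells were called higher in artery. So were 9 of 10 for macrophages and 6 of 7 for dendritic cells. This is the opposite direction to 6 class II genes. Of all genes, 41.8% were called higher in artery. Itgax (-0.57), of the dendritic cell list, and Nkg7 (-0.32), of the T and NK cell list, were below 0 and not called. Without wild-type artery 3, deletion artery 2 and kidney wild-type 3, 8 class II genes were called lower in artery and 0 higher, and the median was -1.22. RT1-Da (-0.91) and RT1-DOb (-1.11) were then also called.

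**Figure D3:**
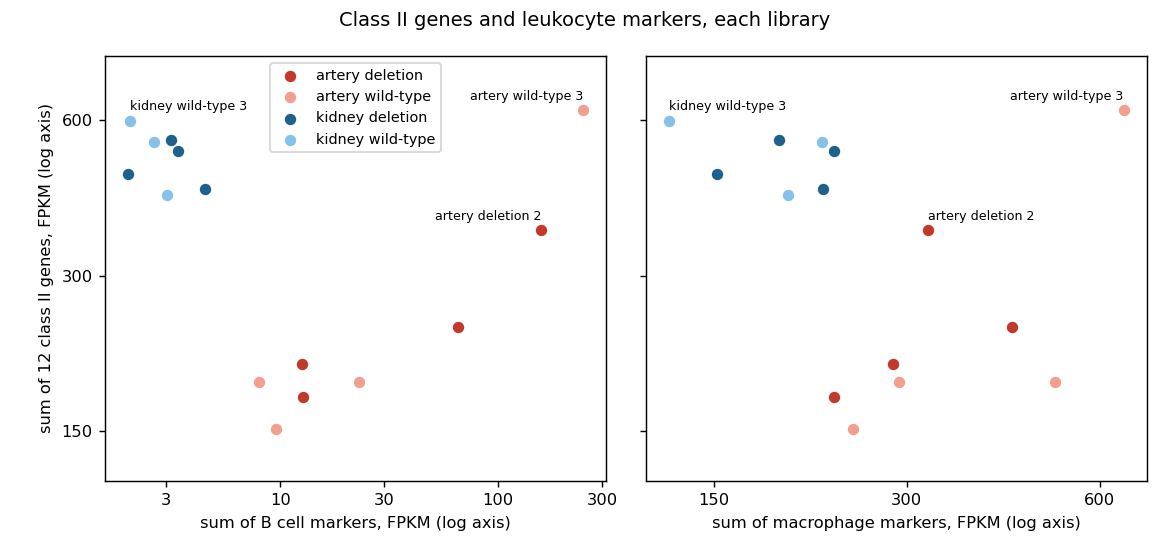
Sum of the 12 class II genes (vertical, FPKM, log axis) against the sum of 12 B cell markers (left) and of 10 macrophage markers (right), both in FPKM on log axes, 1 point per library. The kidneys sit at the top left, with class II sums of 430 to 599 FPKM, and only the arteries labelled deletion 2 (367) and wild-type 3 (627) approach or pass them.

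The ratios below, chosen after their values were seen and given without a test, show how the balance within the pathway differed between tissues. Cd74 over RT1-Da was 0.682 to 1.37 in arteries and 1.47 to 2.78 in kidneys, with no overlap. In wild-type artery 3, where both genes were at their artery maximum, it was 0.861. The 2 DO genes over the 2 DM genes gave 0.16 to 0.497 in arteries and 0.0589 to 0.168 in kidneys, with deletion artery 2 (0.445), deletion artery 4 (0.369) and wild-type artery 3 (0.497) highest. DO is known as a product mainly of B cells and some dendritic cells. The B cell marker sums of these 3 arteries were 158, 12.5 and 245.5 FPKM, and deletion artery 3, with 65.7 FPKM, had a ratio of 0.182. The part of these cells in the ratio was not tested. Tap1 over Tapbp was 0.608 to 0.956 in arteries and 0.179 to 0.286 in kidneys.

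The deletion was compared with wild-type within each tissue. No class II gene was called by limma in artery or kidney, and limma called 0% of all genes in each tissue. At an unadjusted p under 0.05, none of the 10 tested class II genes passed in either tissue, against 5.24% of the 16470 genes tested in arteries and 1.41% of the 15444 tested in kidneys. In arteries the median log2 change, deletion minus wild-type, was -0.09 for class II (3 of 10 above 0) and 0.04 for all genes. Leaving out 1 library turned that sign. Without wild-type artery 3 the class II median was 0.42, without deletion artery 1 it was 0.10, and without both wild-type artery 3 and deletion artery 2 it was 0.18 with 10 of 10 genes above 0 and none called. Cd74 changed by -0.14 (SE 0.38, adjusted p 0.96, limma) in all 8 arteries and by 0.30 without wild-type artery 3. The 95% interval of Cd74 ran from -0.997 to 0.72. RT1-Da changed by 0.09 (SE 0.48).

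In kidney the intervals were narrower. RT1-Da averaged 121 ± 9.05 FPKM in deletion kidneys (SD, n = 4) and 118 ± 9.01 in wild-type kidneys (SD, n = 3), a log2 change of 0.03 with a 95% interval of -0.32 to 0.38. Cd74 changed by -0.12 (SE 0.23) and by 0.08 without kidney wild-type 3. RT1-DOa had the largest class II change, 0.55 (SE 0.34, adjusted p 0.999, limma), and 0.35 without kidney wild-type 3. The class II median was -0.03, against 0.04 for all genes. The interaction of tissue and genotype, which asks whether the deletion effect differs between tissues, called no class II gene, and 0% of 16856 genes.

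**Figure D4:**
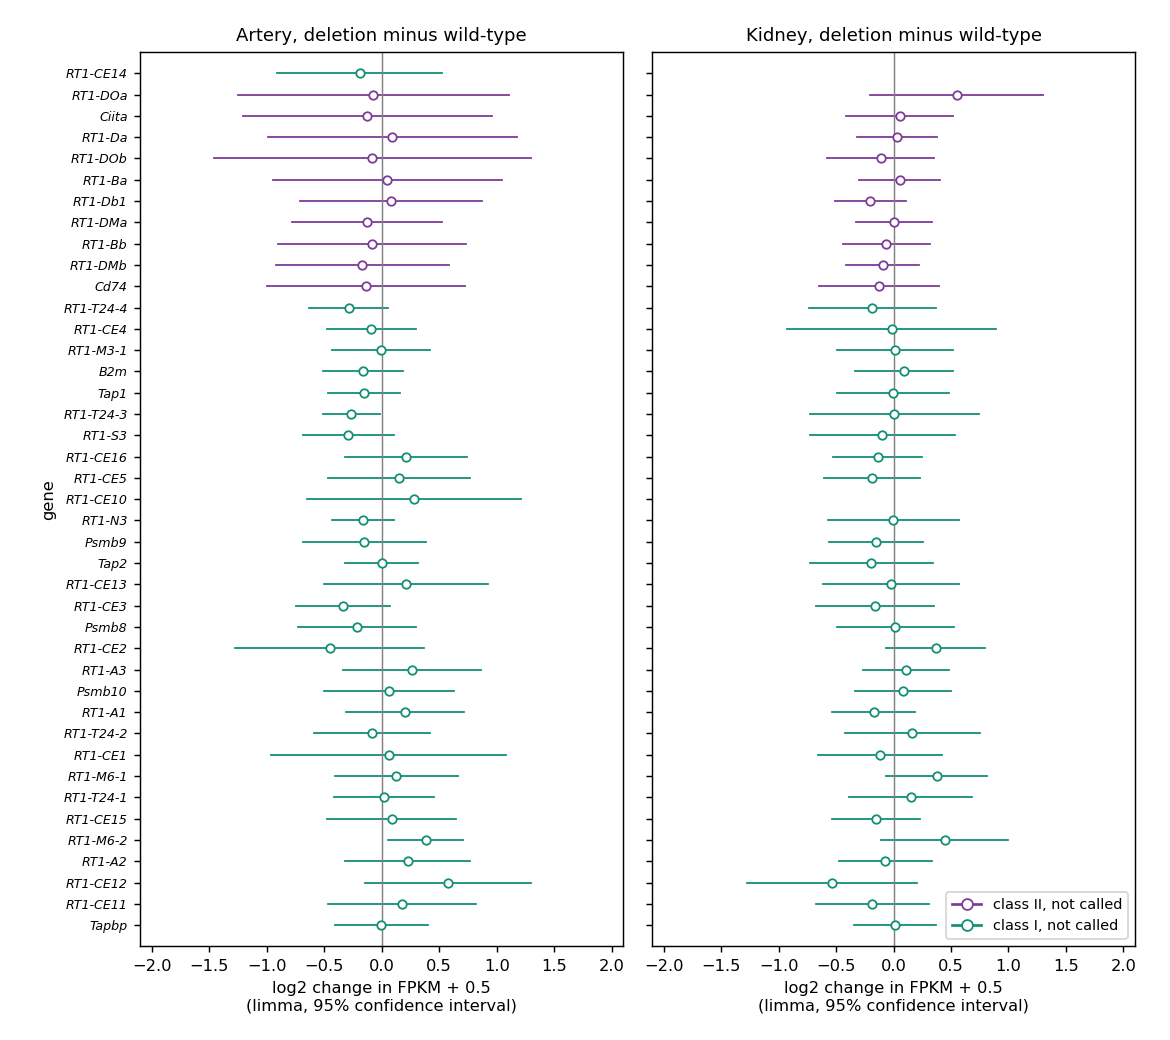
Log2 change, deletion minus wild-type, of the tested genes in artery (left) and kidney (right), with the 95% confidence interval from limma as a line, class II in purple and class I in green. All points are open because none passed an adjusted p of 0.05, and the class II lines are wider in artery (Cd74 -0.997 to 0.72) than in kidney (-0.65 to 0.40).

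Class I heavy chains come from a classical gene group, RT1-A, and from a nonclassical group that includes the RT1-CE, RT1-N, RT1-S, RT1-T24 and RT1-M rows. Promoters were matched for 39 of the 44 class I genes. Classical class I promoters carry an enhancer bound by NF-kappa B and an element bound by interferon regulatory factors, and these were searched as GGGATTCCC and TTTCNCTTC on both strands. The first stood in 8 of 39 class I promoters and in 0.365% of all promoters, and the second in 13 of 39 and in 2.74%. Neither stood in a class II promoter. Stretches of 50 bases follow for 1 RT1-A gene and 3 RT1-CE genes, with both motifs in capitals. The last holds no match to the second string.
RT1-A1, chr20:4907078-4907127, plus strand: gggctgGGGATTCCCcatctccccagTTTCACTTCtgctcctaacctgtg
RT1-CE16, chr20:3265530-3265579, minus strand: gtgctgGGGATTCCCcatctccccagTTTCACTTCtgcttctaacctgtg
RT1-CE11, chr20:3363328-3363377, minus strand: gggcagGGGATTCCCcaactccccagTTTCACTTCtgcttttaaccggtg
RT1-CE4, chr20:3509306-3509355, minus strand: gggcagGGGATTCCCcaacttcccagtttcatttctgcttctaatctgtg
Of these, RT1-CE16 and RT1-CE4 were called higher in artery and RT1-A1 and RT1-CE11 were not called.

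B2m, the light chain of all class I molecules, was the most abundant class I member. It stood at 286, 319, 364 and 268 FPKM in deletion arteries and 307, 311, 394 and 371 FPKM in wild-type arteries, against 163, 133, 150.5 and 167 FPKM in deletion kidneys and 127, 179 and 128 FPKM in wild-type kidneys. All arteries lay above all kidneys, at a log2 difference of 1.13 (SE 0.11, adjusted p 1.67e-07, limma), or 2.2-fold. RT1-T24-4 differed most, at 69 ± 13.2 FPKM in arteries (SD, n = 8) and 19.8 ± 5.6 in kidneys (SD, n = 7), a log2 difference of 1.79 (SE 0.15). RT1-T24-3, whose model it overlaps, differed by 1.05 (SE 0.18). RT1-S3 averaged 59.3 ± 12.3 FPKM in arteries and 29 ± 8.17 in kidneys, at 1.04 (SE 0.18). RT1-M3-1, whose mouse counterpart presents formylated peptides, was higher in artery by 1.16 (SE 0.15). RT1-N3 was higher by 0.68 (SE 0.14).

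The most abundant class I heavy chain rows were in the RT1-CE group. RT1-CE16 averaged 168 ± 48.8 FPKM in arteries and 82.4 ± 11 in kidneys, and RT1-CE5 164 ± 52.5 FPKM in arteries and 87.7 ± 14.2 in kidneys, at log2 differences of 0.98 (SE 0.15) and 0.85 (SE 0.18). RT1-CE4 differed by 1.48 (SE 0.23). Not all members of the group went this way. RT1-CE15 averaged 22.7 ± 7.17 FPKM in arteries and 24 ± 4.14 in kidneys, at -0.12 (SE 0.17), and RT1-CE11 differed by -0.32 (SE 0.20), neither called. Summed over all RT1-CE rows, levels were 253 to 641 FPKM in arteries and 166 to 276 in kidneys. The classical RT1-A group did not follow. RT1-A1 averaged 20.3 ± 5.08 FPKM in arteries and 17.7 ± 2.9 in kidneys, RT1-A2 13.5 ± 3.6 FPKM in arteries and 15.6 ± 2.91 in kidneys, and RT1-A3 34.9 ± 11.3 FPKM in arteries and 29.4 ± 4.42 in kidneys. Their differences were 0.15 (95% interval -0.17 to 0.48), -0.23 (-0.59 to 0.12) and 0.20 (-0.17 to 0.57), and their sum ranged from 42.3 to 98 FPKM in arteries and from 50.5 to 74.8 in kidneys. The difference between the RT1-A and RT1-CE groups in this respect was not tested.

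**Figure D5:**
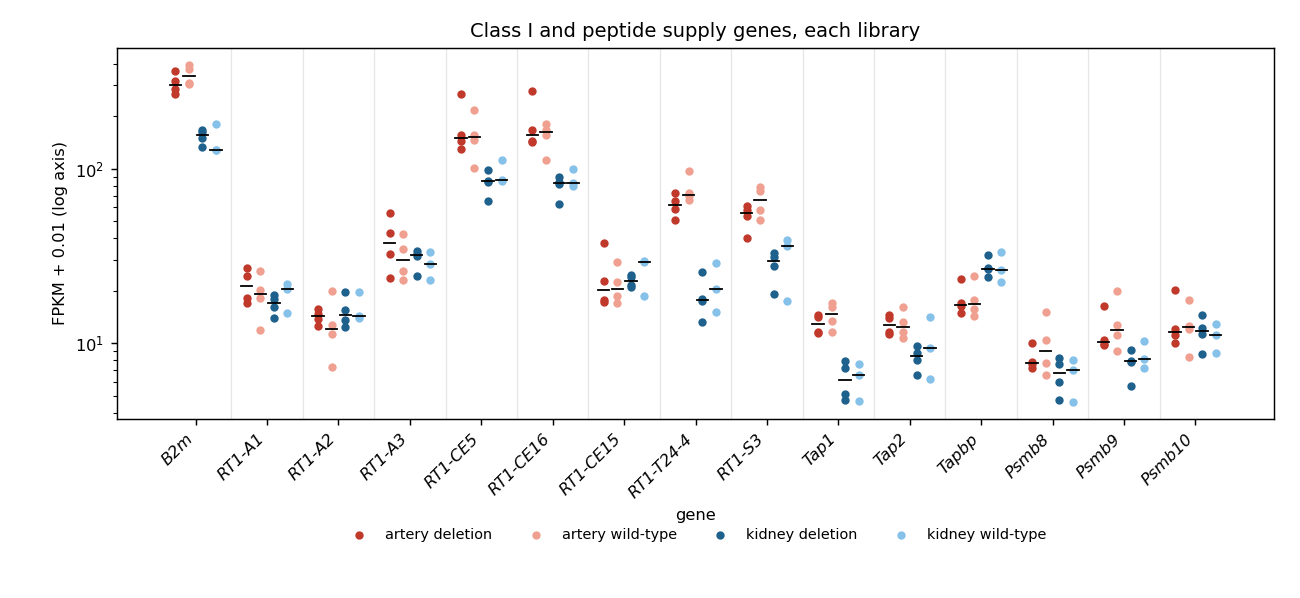
FPKM + 0.01 on a log axis of B2m, the 8 most abundant RT1- class I genes and the peptide supply genes, 1 point per library, in the order artery deletion, artery wild-type, kidney deletion, kidney wild-type, with black lines for the median. B2m, RT1-T24-4 and Tap1 separate by tissue, RT1-A1 to RT1-A3 and Psmb10 overlap, and Tapbp runs the other way.

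The genes that supply and load class I peptides did not move as 1 block. Tap1 stood at 11.3, 14.1, 11.6 and 14.5 FPKM in deletion arteries and 11.5, 13.3, 16.2 and 16.9 FPKM in wild-type arteries, against 7.92, 7.2, 4.73 and 5.11 FPKM in deletion kidneys and 7.54, 6.52 and 4.66 FPKM in wild-type kidneys. All arteries lay above all kidneys, at a log2 difference of 1.09 (SE 0.13, adjusted p 1.86e-06, limma). Its partner Tap2 differed by 0.51 (SE 0.15), and kidney wild-type 3, at 14.1 FPKM, reached into the artery range of 10.6 to 16.1. Tapbp, the tapasin bridge that holds class I to the pump, was called lower in artery. It stood at 16.3, 23.2, 14.9 and 16.9 FPKM in deletion arteries and 14.3, 15.8, 24.2 and 17.7 FPKM in wild-type arteries, against 32.1, 26.9, 26.5 and 24 FPKM in deletion kidneys and 26.4, 33.2 and 22.4 FPKM in wild-type kidneys. Only deletion artery 2 and wild-type artery 3 reached into the kidney range, and the difference was -0.61 (SE 0.13, adjusted p 4.42e-04, limma). Of the immunoproteasome subunits, Psmb9 differed by 0.56 (SE 0.16, adjusted p 0.0058, limma) and by 0.37 without wild-type artery 3 and deletion artery 2. Psmb8 differed by 0.42 (SE 0.17, adjusted p 0.040) and lost its call in 12 of 26 alternatives, among them leaving out the same 2 arteries (0.26). Psmb10 differed by 0.16 (95% interval -0.20 to 0.53).

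The deletion changed no class I gene past the threshold in artery or kidney. At an unadjusted p under 0.05, limma gave 2 of 31 class I genes in artery, beside the 5.24% of all genes, and 0 of 29 in kidney, beside 1.41%. RT1-M6-2 was 2.09, 2.18, 2.74 and 2.19 FPKM in deletion arteries and 1.62, 1.86, 1.39 and 1.73 FPKM in wild-type arteries, with no overlap. Its log2 change was 0.38 (SE 0.15, unadjusted p 0.027, adjusted p 0.89, limma), and in kidney 0.45 (SE 0.25, adjusted p 0.999, limma), where the genotypes overlapped. RT1-T24-3 was 12.7, 15.6, 11.6 and 14.2 FPKM in deletion arteries and 16.5, 14.5, 16.8 and 17.4 FPKM in wild-type arteries, a change of -0.27 (SE 0.11, unadjusted p 0.037, adjusted p 0.89, limma). In kidney it changed by 0.01 (SE 0.33). The log2 change of B2m was -0.16 in arteries (SE 0.16) and 0.09 in kidneys (SE 0.19). The class I medians were -0.0017 in artery and -0.02 in kidney, against 0.04 for all genes in each.

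For class I, the interaction gave 1 of 30 genes at an unadjusted p under 0.05, beside 4.39% of all genes, and called none at the adjusted threshold. That gene, RT1-CE12, was 4.94, 9.52, 4.49 and 3.08 FPKM in deletion arteries and 2.01, 4.57, 2.86 and 4.12 FPKM in wild-type arteries. It was 5.53, 5.05, 1.72 and 5.59 FPKM in deletion kidneys and 5.6, 6.44 and 6.55 FPKM in wild-type kidneys. The difference between the tissues' changes was 1.11 (SE 0.50, unadjusted p 0.044, adjusted p 0.94, limma), and leaving out single libraries gave 0.76 to 1.32. RT1-CE2 and RT1-M2 were each listed at 0 in a library and above 1 FPKM in another. RT1-CE2 was 0 in deletion artery 1 and between 0.398 and 1.35 FPKM in the other libraries, and RT1-M2 reached 1.79 FPKM in wild-type artery 3 and at most 0.594 elsewhere.

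The regulators and processing enzymes around the members were described from lists, with single genes of the tissue comparison named after their values were seen. Nlrc5, the class I counterpart of Ciita, averaged 3.3 ± 0.741 FPKM in arteries (SD, n = 8) and 1.1 ± 0.446 in kidneys (SD, n = 7). Its log2 difference was 1.28 (SE 0.18, adjusted p 9.71e-06, limma), in the direction of B2m and Tap1. Not all class I members went this way, since RT1-A1, RT1-A2, RT1-A3 and Psmb10 were not called and Tapbp was called lower (-0.61). A link of Nlrc5 to these levels was not tested. Of 13 loading and proteasome genes, 3 were called higher in artery and 10 lower, beside 41.8% and 35.2% of all genes. Besides Nlrc5, those higher were Tapbpl (1.02), a tapasin relative that edits peptides, and Erap1 (0.81), which trims them. The constitutive proteasome subunits Psmb5 (-1.26), Psmb6 (-1.19) and Psmb7 (-0.71), which Psmb8, Psmb9 and Psmb10 replace in the immunoproteasome, were lower in artery. In the genotype comparison Psmb6 (0.35, SE 0.11) and Psmb7 (0.26, SE 0.11) had unadjusted p-values of 0.011 and 0.037 in artery, with an adjusted p of 0.89 in limma for both.

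Of 17 class II partners, 7 were called higher in artery and 6 lower. These counts are near the shares of all genes, 41.8% higher and 35.2% lower, and do not set the list apart. Lgmn and Ctsl, endosomal proteases that act on antigens and the invariant chain, were far lower in artery. Lgmn averaged 36.5 ± 3.39 FPKM in arteries and 398 ± 118 in kidneys, and Ctsl 158 ± 25.7 FPKM in arteries and 1469 ± 912 in kidneys, of which kidney wild-type 3 had 3440. Proximal tubule cells, whose markers were also far higher in kidney, are known to be rich in lysosomal proteases, and their part in these levels was not tested. Ctss, the cathepsin of B cells and dendritic cells, ranged from 18.2 to 55.6 FPKM in arteries and from 16.9 to 29.9 in kidneys, at 0.19 (SE 0.22). The factors of the X and Y boxes went both ways. Rfx5 (0.37, SE 0.10), Nfya (0.42, SE 0.12), Nfyb (0.38, SE 0.09) and Creb1 (0.78, SE 0.08) were called higher in artery and Rfxank (-0.78, SE 0.11) lower, while Rfxap (0.12) and Nfyc (-0.06) were not called. In the genotype comparison the smallest p among these partners was that of Creb1 in artery (-0.17, SE 0.08, unadjusted p 0.059, limma).

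Of 6 class I-like genes outside the complex, 3 were called higher in artery and 1 lower, beside 41.8% and 35.2% of all genes. Procr, the endothelial protein C receptor, averaged 20.7 ± 5.18 FPKM in arteries and 0.935 ± 0.305 in kidneys. Mr1, which presents vitamin metabolites to MAIT cells, averaged 2.01 ± 0.483 FPKM in arteries and 0.139 ± 0.115 in kidneys.

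Ifng, the cytokine that induces both MHC classes, was at most 0.0694 FPKM in any artery and 0.0447 in any kidney and did not pass the filter. Of 23 interferon pathway genes, 19 were called higher in artery than in kidney and none lower, at a median of 0.98. Of all genes, 41.8% were called higher and 35.2% lower. Between genotypes all 23 were below 0 in deletion arteries, at a median of -0.29, with 0 called and 7 at an unadjusted p under 0.05, beside the 5.24% of all genes. With Ifng, the list summed to 320, 374, 331 and 330 FPKM in deletion arteries and 383, 336.5, 457 and 548 FPKM in wild-type arteries. Wild-type artery 4 was the highest and also held the most haemoglobin RNA. The list was not counted without that artery. Without deletion artery 2 and wild-type artery 3, 20 of 23 were below 0. Markers of some other cells were also below 0 in the 8 arteries, none called. They were 12 of 12 T and NK cell genes (median -0.50), 9 of 10 macrophage genes (median -0.21) and 6 of 6 erythrocyte genes (median -0.80). B cell markers split into 5 above and 7 below. Without the same 2 arteries, T and NK cell genes (12 of 12, median -0.32) and erythrocyte genes (6 of 6, median -1.43) stayed below 0. Macrophage genes did not, with 6 of 10 above 0 at a median of 0.04. The part of these cells was not tested. In kidney, 10 of 22 interferon pathway genes were above 0 and 12 below. Among the 7 were Gbp5 (-0.55, SE 0.14), Mx2 (-0.86, SE 0.24) and Usp18 (-0.85, SE 0.26), each with an adjusted p of 0.89 in limma. Of the 31 class I genes, 15 were above 0 in the same comparison, and the difference between the lists was not tested.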

How the data were processed

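The authors' deposited table holds FPKM values per gene and library, made from total RNA per the labels. Per the submitters' processing notes, build rn7 was used with HISAT2 2.2.1, Trim Galore 0.6.2 and DESeq2 1.46.0, with no role stated. What computed FPKM is not given in the sources used. How reads of similar RT1 genes were shared can shift levels among them. Counts were not used here, so depth is unknown and no counting interval is given. A deposited coverage column (a signal value tied to no sample, 1 column) was not used. Of 40694 rows, the 34357 with an identifier were kept.

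Values were analysed as log2(FPKM + 0.5), leaving out genes whose mean was under 0.5 FPKM, with limma 3.58.1 in R 4.3.3 (trend and robust moderation, two-sided, Benjamini-Hochberg over all genes tested), and the pseudocount shrinks changes of low genes. The code was tested on simulated data. Figures used matplotlib 3.10.9 in Python 3.11.15. Genes named were all class II members, B2m, the Tap, Tapbp and Psmb genes, the 8 most abundant RT1- class I genes, members with an unadjusted p under 0.05 in a genotype or interaction contrast or listed at 0 in 1 library and at least 1 FPKM in another, and partner genes with the smallest p; other names were chosen after their values were seen. The members and lists were chosen with earlier results of these data known. Alternatives were other pseudocounts, filters, scalings and moderation, array weights, a replicate block, a B cell covariate and leaving out libraries.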

Additional observations from a re-analysis of the deposited data

Results flagged for a closer look

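A library was marked where its value lay far from the other 3 of its group of 4, by Dixon's criterion at the 95% level. Of 96 groups of 4 examined, 17 were marked, where chance marks about 1 in 20, and genes of 1 library are not independent. Some genes were examined because of their extreme values or small p-values, so the marks cannot be set strictly against chance. The artery labelled deletion 2 was marked 4 times and the artery labelled wild-type 3 was marked as the highest 10 times, RT1-M2 included.

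In deletion artery 2, Ciita (4.5 FPKM, the others 1.76 to 2.2), RT1-Db2 (0.56), RT1-Ha (0.857) and Psmb9 (16.2, the others 9.76 to 10.3) were marked. In wild-type artery 3, the marked class II genes were Ciita (9.24 FPKM, the others 1.6 to 1.88), Cd74 (200, the others 58.3 to 59.6), RT1-Da (232), RT1-Db1 (24.6), RT1-Db2 (2.72), RT1-Ba (58.3), RT1-Bb (46.7), RT1-DOb (8.61) and RT1-Ha (1.98). RT1-M2, of class I, was also marked there at 1.79 FPKM. It was examined only because of that value, so its mark adds nothing. These are also the 2 arteries with the highest B cell marker sums, 158 FPKM in deletion 2 and 245.5 in wild-type 3, and the part of B cells in the marks was not tested.

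Outside these libraries, RT1-DMb was low in kidney deletion 2 (23.9 FPKM, the others 30.4 to 31.8), RT1-M6-2 was high in artery deletion 3 (2.74, the others 2.09 to 2.19) and RT1-CE12 was low in kidney deletion 3 (1.72, the others 5.05 to 5.59).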

How the results depend on the processing

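Of the 24 members called between artery and kidney, 18 kept their call in all 26 alternatives run. The 6 that lost it in some were RT1-CE13 (18 alternatives), Psmb8 (12), RT1-DOa (7), RT1-CE10 (3), RT1-CE3 and RT1-Ba (quantile normalization), and the cause was not tested. Class I calls numbered 15 to 18 and class II calls 6 to 9 when single libraries were left out. RT1-Da, not called, was at 0.00085 under quantile normalization. In the genotype comparisons 0 members were called, except that array weights called 1 class I gene in kidney, RT1-M6-1 (0.54, adjusted p 0.049, limma), among 282 of 15444 genes against 0 without weights. Cd74 turned sign in artery without both B cell-rich arteries (0.13) and in kidney under quantile normalization (0.038). Leaving out single libraries gave -0.30 to 0.30 for Cd74 and -0.21 to 0.60 for RT1-Da in artery, and -0.34 to 0.078 for Cd74 in kidney. No pairing of deletion with wild-type libraries by replicate number was seen within a tissue. Deviations of same-numbered libraries correlated at 0.32, -0.34, 0.24 and 0.30 in artery and at 0.082, -0.0079 and 0.27 in kidney. Those of different numbers ran from -0.45 to 0.45 in artery and from -0.30 to 0.34 in kidney. Whether an artery and a kidney library came from the same rat was not examined. With the replicate block the artery class II median was -0.09, the kidney class II median -0.09, and 0 members were called. Unknown depth leaves the precision of low genes unstated.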
